A study of Mus musculus with 4 samples.

Results

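Resting stem cells carrying Vwf transcripts were examined among donor hematopoietic stem and progenitor cells (HSPCs) recovered from transplanted mice. They were selected on their measured counts: a cell had at least 1 unique molecular identifier (UMI, 1 captured transcript) of Procr, of at least 2 of the 5 stem genes Fgd5, Mecom, Mllt3, Hlf and Clec1a, and of Vwf. Cells with more than 1 UMI of the platelet factor gene Pf4, or more than 1 UMI summed over 8 cell cycle genes (Mki67, Top2a, Ube2c, Birc5, Hist1h1b, Hist1h2ap, Tk1 and Rrm2), were left out. Of 44151 barcodes, 41122 passed a floor of 500 detected genes and a ceiling of 10% for mitochondrial UMIs (medians of 9824 to 10226.5 UMIs per cell in a library), 4666 of these passed the stem gate without regard to Vwf, and 1077 had Vwf. The 3589 gated cells with 0 Vwf UMIs are the comparison. Because Vwf and the other 15 genes of the rule chose the cells, they are left out of every count below, and the differences between both sides are descriptions without a test.

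The study transplanted C57BL/6 marrow of CD45.2 donors in competition with other marrow and sorted donor HSPCs from bone marrow after 20 weeks. Its 4 samples came from 2 wild-type and 2 Srcap heterozygous mutant transplants, with 20000 sorted cells per sample. All groups therefore share transplantation and the 20-week interval. The labels give neither the change in the Srcap allele, nor the age of the donors, nor whether marrow was pooled. Cells were captured with 10x Genomics 3' chemistry in 4 libraries, told apart by the suffix of the barcode. No label ties a suffix to a sample, so mutant and wild type are not compared. Libraries 1 to 4 are described one by one, by suffix, and are not treated as replicates of a group.

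Vwf encodes von Willebrand factor, a large adhesive glycoprotein that megakaryocytes load into platelet granules and that endothelial cells also make. Within the stem cell compartment of mouse marrow, Vwf is known to mark stem cells biased toward platelet and myeloid output, whereas stem cells without it tend more toward lymphoid output. The number of such cells is known to grow with age. Procr (the protein C receptor EPCR) and the transcription factor genes Mecom and Hlf are standard markers of long-term stem cells.

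The members were spread unevenly over the libraries. Libraries 1 to 4 held 130, 131, 301 and 515 of them. As a share of gated cells, these were 13.5% in library 1 (exact 95% binomial interval 11.4 to 15.8), 13.6% in library 2 (11.5 to 15.9), 25.7% in library 3 (23.2 to 28.3) and 32.8% in library 4 (30.5 to 35.2). Libraries 1 and 2 overlapped in their intervals, library 3 lay above both, and library 4 lay above library 3. As a share of all kept cells, members made up 1.05%, 1.31%, 3.12% and 5.71%. The gate itself held 7.76%, 9.61%, 12.1% and 17.4% of kept cells, with libraries 3 and 4 again the highest. These intervals, and all Poisson intervals below, cover counting error alone.

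Depth and the number of stem genes moved with Vwf. Median UMIs per cell were 7700, 7867, 8995 and 8820 in members of libraries 1 to 4, against 6775.5, 7289, 7722 and 7542 in cells without a Vwf UMI. With kept cells thinned to 5000 UMIs and gated again, which 39118 of the 41122 were deep enough for, the shares were 10.4%, 10.3%, 19.3% and 25.0%, in the same order apart from a near tie of libraries 1 and 2. Among cells with 2 of the 5 stem genes, 5.34%, 3.75%, 11.8% and 15.2% had Vwf, and among cells with all 5, 41.9%, 46.4%, 60.3% and 54.5%. At 5000 UMIs per cell, the shares among cells with 2 stem genes were 6.60%, 3.61%, 11.1% and 16.8%, and with 4 stem genes 16.8%, 21.6%, 34.5% and 37.3%. The stem genes are part of the rule, so these shares describe the gate and support nothing further.

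**Figure D1:**
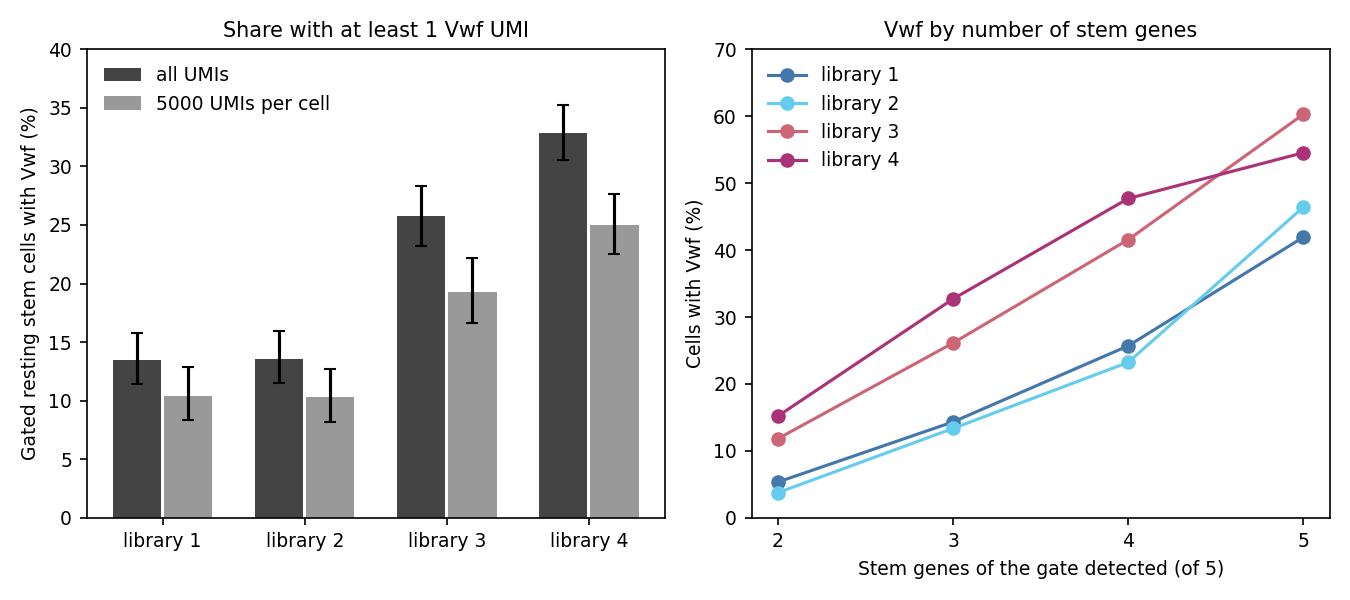
Left, the share of gated resting stem cells with at least 1 Vwf UMI in each library, in percent, at full depth (dark bars) and with cells thinned to 5000 UMIs, shallower cells left out (light bars). Error bars are exact 95% binomial intervals. Right, the full-depth share by the number of the 5 stem genes detected, 1 line per library. Libraries 3 and 4 stand above libraries 1 and 2 in both panels, and the share climbs from 2 to 5 stem genes in each library.

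Most members stood close to the threshold of the rule. A single Vwf UMI was found in 97, 89, 168 and 281 of them (74.6%, 67.9%, 55.8% and 54.6%), 2 UMIs in 22, 26, 80 and 135, and 3 or more in 11, 16, 53 and 99. The highest count in a cell was 5, 8, 6 and 7. Summed over the members, Vwf (chromosome 6, 125546774 to 125686679, forward strand of GRCm38) stood at 175, 194, 180 and 190 CPM (UMIs of a gene scaled to a fixed total of UMIs), where 1 UMI in a cell of median depth equals 130, 127, 111 and 113 CPM. Over the whole gate, members and the rest, the Vwf level was 25.9, 27.8, 50.9 and 69.4 CPM.

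A droplet can catch free RNA, so the same readout was taken in B cells (at least 2 UMIs each of the B cell receptor genes Cd79a and Cd79b), which should lack Vwf. Their 1925 cells held 3.08 CPM of Vwf (95% Poisson interval 2.48 to 3.79) at a median of 14540 UMIs. Thinned to 5000 UMIs, 0.659% of 1668 B cells had Vwf, against 17.3% of gated resting stem cells over the 4 libraries. Other compartments also held Vwf. Gated stem cells with 2 or more cycle UMIs had Vwf at 10.4, 8.50, 16.9 and 34.3 CPM, and resting cells with 2 or more Pf4 UMIs at 27.0, 33.8, 37.6 and 60.3 CPM. At 5000 UMIs, the Vwf share of the Pf4 cells was 13.8%, 15.5%, 18.5% and 27.7%, and that of the stem cells with cycle UMIs 4.73%, 4.90%, 10.4% and 20.2%. Library 4 was highest in each of these compartments.

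The label of a stem cell was checked with genes outside the rule. Slamf1, which encodes the stem cell surface marker CD150, stood at 48.1, 63.7, 57.4 and 65.4 CPM in members and at 16.0, 16.7, 17.4 and 32.6 CPM in cells without Vwf, a median log2 ratio of 1.60 (range over libraries 0.98 to 1.87). It was higher in 4 of 4 libraries, and 39.7% of members had a Slamf1 UMI in the median library against 11.3% of the others. Ctnnal1, which encodes alpha-catulin, a protein used to mark long-term stem cells, had a median log2 ratio of 1.40, and the angiopoietin receptor gene Tek one of 0.92. Esam (0.64), Kit (-0.17) and Ly6a (-0.06), which code for surface markers that stem cells share with early progenitors, did not pass the size rule given next. Flt3, Cd48 and Cd34, which mark multipotent progenitors, were lower, with values below. Slamf1, Ctnnal1, Tek and the lower genes thus go with the label. Esam leaned the same way without a call, and Kit and Ly6a did not set the sides apart.

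Gene differences were taken within each library as the log2 ratio of summed CPM plus 1, a scale that understates the change of low genes. Calls required a 1.5-fold difference or more, with the same sign, in 4 of 4 libraries. Of 10005 genes with at least 5 CPM on average, 165 were higher with Vwf (1.65%) and 148 were lower (1.48%). The median log2 ratio over all these genes was -0.07. Among the 15 highest and 15 lowest named genes, the 95% Poisson intervals of both sides lay apart in 4 of 4 libraries for 13 and 15 genes. The exceptions, Wdr66 and Sox18, lay apart in 3 libraries. These genes were picked as the extremes of the same contrast, so the separation describes the choice and supports nothing further.

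Clu, which encodes the secreted chaperone clusterin, ranked first among the higher genes by the library closest to 0. It stood at 35.6, 42.1, 57.4 and 77.2 CPM in members against 5.17, 3.44, 11.1 and 15.2 CPM in the cells without Vwf. The lowest member library was above the highest library of the other side, and the median log2 ratio was 2.42 (range 2.27 to 3.28). Neo1 (chromosome 9, 58874687 to 59036441, reverse strand of GRCm38), which encodes the netrin and repulsive guidance receptor neogenin, stood at 47.1, 45.0, 65.9 and 87.0 CPM against 5.83, 4.85, 14.2 and 24.0 CPM, a ratio of 2.48 (1.81 to 2.97). Per cell, 30.4% of members and 5.7% of the others had a Neo1 UMI in the median library. For Clu these shares were 28.8% and 4.7%.

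Jam2, a junctional adhesion molecule gene, stood at 54.8, 45.9, 58.1 and 43.0 CPM in members against 12.2, 8.92, 12.2 and 14.7 CPM, with no overlap between the sides (2.12, range 1.49 to 2.24). Cldn5, which encodes the tight junction protein claudin 5, stood at 10.6, 23.4, 25.5 and 25.3 CPM against 1.00, 2.19, 4.48 and 5.38 CPM (2.40). The library 1 value of Cldn5 rested on 4 cells with 11 UMIs, 5 of them in a single cell. Tm4sf1, a tetraspan membrane protein gene (1.92), Ramp2, a partner of the adrenomedullin receptor (1.99), and Sox18, a transcription factor gene of vascular endothelium (1.66), were also higher.

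The other genes among the 15 highest were Chil5, a chitinase-like gene (1.98), Klrb1c, which encodes the natural killer surface protein NK1.1 (2.23), Sbspon (1.81), Wdr66 (1.65), the tensin gene Tns2 (1.81) and the dynamin gene Dnm3 (1.58). Clca3a1, a gene of the calcium-activated chloride channel regulator family, showed the narrowest range of the 15, with a median of 1.54 (1.51 to 1.65). It stood at 39.4, 30.0, 48.2 and 79.5 CPM against 11.8, 9.70, 16.3 and 26.7 CPM. Gkn3, a gastrokine gene, was the most variable between libraries, at 13.5, 10.3, 148 and 36.8 CPM in members and 2.00, 2.97, 19.3 and 3.23 CPM in the others. Its level in library 3 was the highest on both sides.

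Flt3, the receptor gene that marks multipotent and lymphoid-primed progenitors, was the lowest of the named genes by median ratio (-2.82, range -2.91 to -1.75). It stood at 10.6, 23.4, 7.44 and 6.02 CPM in members and at 78.0, 81.2, 62.5 and 50.6 CPM in the others, with every member library below every library of the other side. A Flt3 UMI was found in 6.3% of members and 31.4% of the others in the median library. Read the other way, Vwf was found in 3.6%, 4.7%, 5.3% and 7.8% of gated cells with Flt3 and in 17.4%, 17.5%, 32.3% and 37.8% of those without. Flt3 cells outside the stem gate, with no stem gate genes, held 9.37 CPM of Vwf over 263 cells, above the level in B cells. This value rested on 21 UMIs in 17 cells (Poisson interval 5.80 to 14.3). These Flt3 cells also held 31068 to 62231 CPM of the immunoglobulin gene Igkc over the libraries, against 78.1 to 1500 CPM in gated cells without Vwf. Tyrobp stood at 504 to 646 against 25.1 to 43.8 CPM. They are thus not shown to be progenitors, and which of them carried the Vwf was not tested.

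Cd34, a sialomucin gene that stem cells switch on as they become multipotent progenitors, stood at 59.6, 94.6, 67.0 and 51.9 CPM against 258, 303, 254 and 201 CPM (-1.92). Cd48 was at 14.4, 12.2, 6.73 and 6.44 CPM against 36.5, 35.4, 38.8 and 22.1 CPM (-1.55). Neither gene overlapped between the sides. The lymphoid chromatin organizer gene Satb1 (-1.86) and Tespa1, a gene of thymocyte receptor signalling (-2.57), were lower as well.

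Nkg7, a granule protein gene of cytotoxic lymphocytes, stood at 43.3, 33.7, 33.0 and 21.4 CPM against 166, 178, 162 and 107 CPM (-2.26). Wfdc17, which encodes a small secreted whey acidic protein, was at 4.81, 14.0, 15.9 and 14.1 CPM against 104, 77.8, 114 and 64.9 CPM (-2.58). The elastase inhibitor gene Serpinb1a (-2.05), the signalling adaptor genes Lat2 (-2.14) and Tyrobp (-1.79), the chemokine gene Ccl9 (-2.06), the membrane-shaping gene Bin1 (-2.10), the melanocortin receptor gene Mc5r (-1.98) and Sh2d5 (-2.15) were lower too. Sh2d5 had 2 UMIs in the members of library 1.

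**Figure D2:**
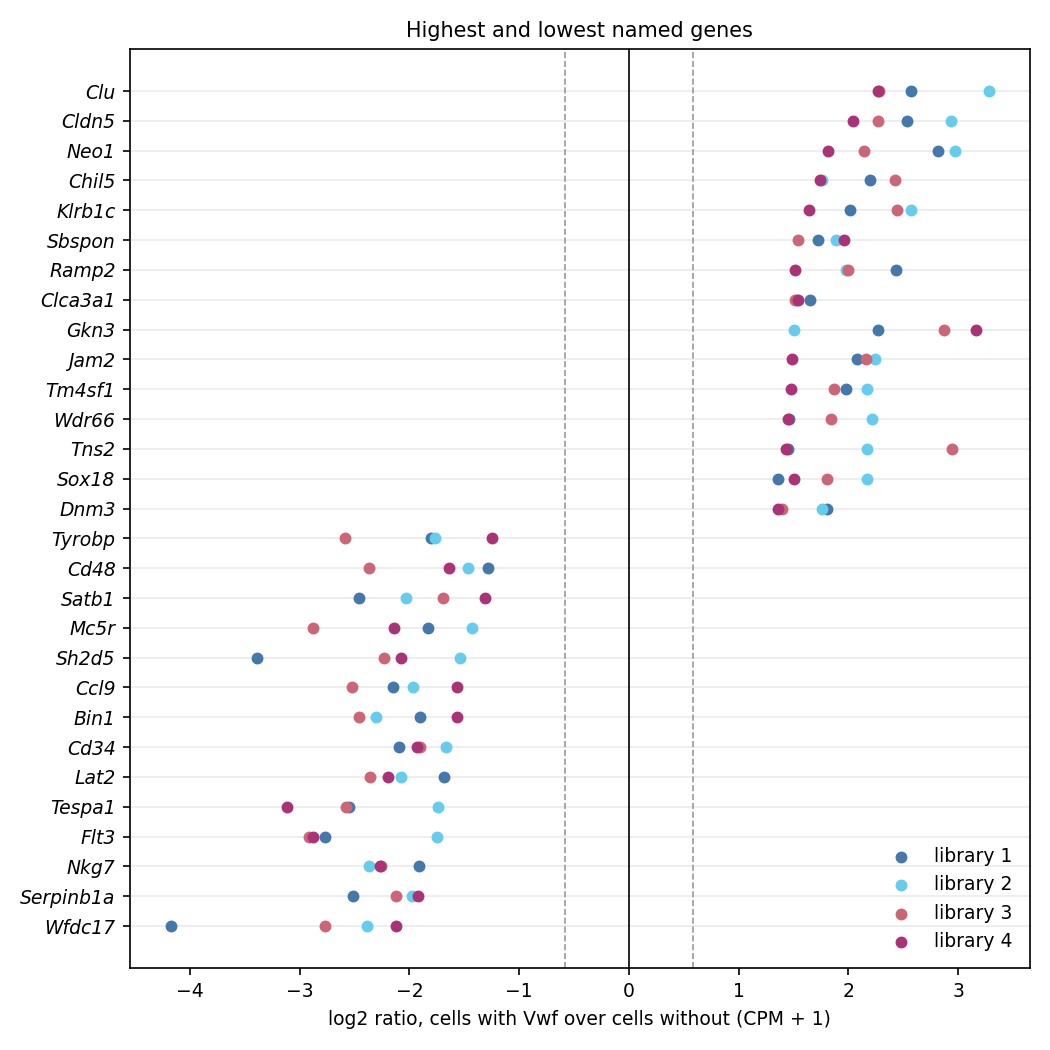
Log2 ratio of CPM plus 1, cells with Vwf over cells without, for the highest and lowest named genes (rows). Each point is a library, and dashed lines mark the 1.5-fold limit on either side of 0. All 4 points of each gene lie beyond the limit on one side, since the genes were chosen so, and Clu, Cldn5 and Neo1 lie farthest to the right by the library closest to 0.

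The differences also stood in the number of cells with a transcript, counted at equal depth. The gate and the split by Vwf stayed as set at full depth. With each gated cell thinned to 5000 UMIs, which left out 8, 4, 3 and 5 members and 63, 62, 42 and 50 of the other cells, Slamf1 was found in 25.8% of members and 7.32% of the others in the median library. Cavin2 was found in 39.8% and 9.92%, Neo1 in 23.6% and 4.38%, and Clu in 19.4% and 3.34%. Cd34 was found in 19.4% and 59.1%, and Flt3 in 2.91% and 23.7%. At full depth, Vwf was present in 54.5%, 65.96%, 64.6% and 69.4% of gated cells with Clu and in 10.9% to 23.6% of those without. For Cavin2 these shares were 41.8%, 41.1%, 56.8% and 55.4% against 7.6%, 7.3%, 15.4% and 22.2%, and for Cd34 they ran the other way, at 6.1%, 7.7%, 13.4% and 18.8% against 24.5%, 25.1%, 43.6% and 45.4%. No single one of these genes was found in all members or missing from all other cells.

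Gated stem cells with 2 or more cycle UMIs, 3307 in number, lay farther from the members than the resting cells without Vwf for several named genes. Mycn stood at 34.9, 34.9, 39.7 and 82.3 CPM there, and Cavin2 at 17.2, 13.2, 21.7 and 34.6 CPM. Slamf1 stood at 9.52 CPM in the median library. Each library's value of these 3 genes is below that of the resting cells without Vwf of the same library. Cd48 stood at 104, 105, 118 and 86.0 CPM and Cd34 at 323, 383, 332 and 270 CPM, each above the resting cells without Vwf. Clu, at 5.28, 2.16, 8.68 and 19.2 CPM, was close to its level in those cells. The median depth of the cycle cells, 13100 UMIs, was also higher than that of members, at 8564.

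Genes were then grouped by function. Of 19 measured megakaryocyte and platelet genes, 3 were higher and 1 was lower, beside 1.65% and 1.48% of all genes, with a list median of 0.39 (0.31 to 0.44 over libraries). Cavin2, which encodes a caveola coat protein abundant in platelets, stood at 129, 145, 119 and 106 CPM in members against 21.3, 27.4, 28.2 and 48.0 CPM (2.20), so that even the lowest member library was over the highest of the other side. Selp, which encodes the granule adhesion receptor P-selectin, was at 96.1, 122, 120 and 141 CPM against 52.5, 53.2, 57.9 and 86.3 CPM (0.95). Itgb3, the beta subunit of the platelet fibrinogen receptor, had a ratio of 1.28, while Itga2b, its alpha subunit, had one of 0.11 (20.5 against 18.8 CPM in the median library). Plek, which encodes the platelet kinase substrate pleckstrin, was lower (-1.59).

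Of the 34 genes of the list, Gp6, Thbs1, Tubb1, Slc6a4 and Cd226, named here after their values were seen, had no UMI in members, which allows up to 2.88, 2.81, 1.06 and 0.623 CPM in libraries 1 to 4 (3 UMIs each). None of 15 megakaryocyte and erythroid transcription factor genes was called, and their median was 0.10. The largest among them were Gata2 (0.67) and Zfpm1 (0.56), which encodes the GATA partner FOG1.

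Members were also set beside resting cells with 2 or more Pf4 UMIs. In the median library, Itga2b stood at 20.5 CPM in members and 84.7 CPM in the Pf4 cells, and the erythroid and megakaryocyte regulator Gata1 at 1.5 and 15.3 CPM. Pf4 itself, which the rule limits in members, stood at 18.4 and 1024 CPM. The order was the other way for Neo1 (56.5 against 4.3 CPM) and Clu (49.8 against 9.3 CPM). Cavin2 levels were nearer to each other, at 124 against 94.6 CPM.

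Genes known from work on aged mice to be raised in old stem cells had the highest median of the lists of functions and pathways, cell type markers apart. Of 38 measured genes, 28 were higher with Vwf and 0 were lower, beside 1.65% of all genes, and the list median was 1.35 (0.89 to 1.57). Members of this list, such as Neo1, Clu, Jam2, Klrb1c, Tm4sf1 and Clca3a1, are among the 15 highest genes. The lists share genes: Cavin2, Selp and Itgb3, the higher genes of the platelet list, are also among these 28. The metallothionein genes Mt1 (138, 124, 135 and 107 CPM against 36.5, 24.4, 32.9 and 48.2, ratio 1.95) and Mt2 (2.57) were higher, as were Cd38, an NAD-consuming surface enzyme gene (1.85), the glutathione transferase gene Gstm2 (1.84), the transglutaminase gene Tgm2 (1.59), Nupr1, a stress-induced nuclear protein gene (1.20), and Cyp26b1, a retinoic acid-degrading enzyme gene (1.49). The age of the animals is not in the labels, and the list serves here only as a set of gene names. Ampd3 (1.34), Mmrn1 (0.82), Aldh1a1 (0.51) and Alcam (0.49) were not called.

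Stem cell genes outside the gate were higher in 10 of 33 and lower in 0, beside 1.65% and 1.48% of all genes, with a median of 0.56 (0.43 to 0.58). Mycn, a MYC family gene expressed in stem cells, stood at 175, 214, 276 and 305 CPM against 68.8, 74.3, 103 and 142 CPM (1.37). Socs2, a feedback inhibitor gene of cytokine signalling, stood at 80.7, 79.6, 102 and 129 CPM against 25.0, 26.8, 45.5 and 61.8 CPM (1.34). Trim47 (1.23) and the transcriptional regulator gene Prdm16 (0.79) were also higher. Hoxb5 (0.86) and Pdzk1ip1 (0.87) were not called, and Meis1 (0.11) and Eya1 (0.01) were close to even.

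Multipotent and lymphoid priming genes gave the mirror picture: 7 of 22 were lower (beside 1.48% of all genes) and 0 higher, with a median of -0.93 (-0.95 to -0.50). Besides Flt3, Cd34, Cd48 and Satb1, these included the T cell transcription factor gene Runx3 (-1.86) and the tetraspanin gene Cd37 (-1.32). Dntt, the terminal transferase gene of lymphoid progenitors, had a median ratio of -1.40 without passing in all 4 libraries, and the lymphoid factor Ikzf1 one of -0.81. In the myeloid list 2 of 14 genes were lower, beside 1.48% of all genes, which were Tyrobp and the hexokinase gene Hk3 (-1.05). The primary granule gene Mpo had a ratio of -0.88 without a call.

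Cell cycle genes leaned low although both sides were held to 1 cycle UMI or fewer. Of 23 S phase genes outside the gate 3 were lower (the helicase gene Mcm7, the licensing factor gene Cdt1 and the uracil glycosylase gene Ung) and 0 higher, beside 1.48% lower among all genes, and the median was -0.64. Of 9 G2 and M phase genes 0 were called, with a median of -0.50. The DNA ligase gene Lig1, of the repair list, was lower (-0.71, 1 of 25, beside 1.48% of all genes). Myc stood at 73.1, 73.0, 80.4 and 66.2 CPM against 117, 126, 137 and 123 CPM (-0.77), the opposite direction to Mycn. It was the 1 called gene of 21 in the MYC and ribosome biogenesis list, beside 1.48% lower among all genes. Among 16 quiescence and cell cycle inhibitor genes, 1 was higher, beside 1.65% of all genes. This was Ndn, an imprinted gene that restrains proliferation (1.45), while Cdkn1c (0.68), which encodes p57, did not pass.

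Id1, a target gene of BMP signalling, was the 1 of 19 TGF beta and BMP genes that was higher (2.05), beside 1.65% of all genes. Its level was low, at 11.5, 11.2, 12.8 and 8.72 CPM in members. Adhesion genes were higher in 4 of 25 (beside 1.65% of all genes), which were Neo1, Jam2, Itgb3 and Jam3 (1.56), and the list median was 0.11. Cytokine receptor genes were higher in 1 of 25 (Tek) and lower in 2, beside 1.65% and 1.48% of all genes. The lower ones were Flt3 and the interleukin 1 receptor gene Il1r1 (-1.74, with 1 UMI in members of library 1). No gene was called among 24 interferon response genes (median 0.00), 21 antigen presentation genes (-0.10), 15 immediate early and heat shock genes (-0.02), 30 nuclear oxidative phosphorylation genes (-0.17) and 17 glycolysis genes (-0.02). Of 9 imprinted genes measured 1 was higher, which was Ndn, beside 1.65% of all genes. A single call in a list this small describes the gene and not the list.

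Srcap, the gene altered in the mutant donors, stood at 61.5, 86.2, 56.7 and 58.8 CPM in members and 70.2, 81.5, 57.2 and 60.0 CPM in the others (-0.02), and library 2 was highest on both sides. The tag at the end of the transcript need not read the altered part of the allele, so these levels check no genotype. Of 16 genes of the SRCAP complex and of the histone variant H2A.Z that it deposits, 0 were called, with a median of -0.19. Among 25 genes recurrently mutated in clonal hematopoiesis 0 were called (-0.13).

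**Figure D3:**
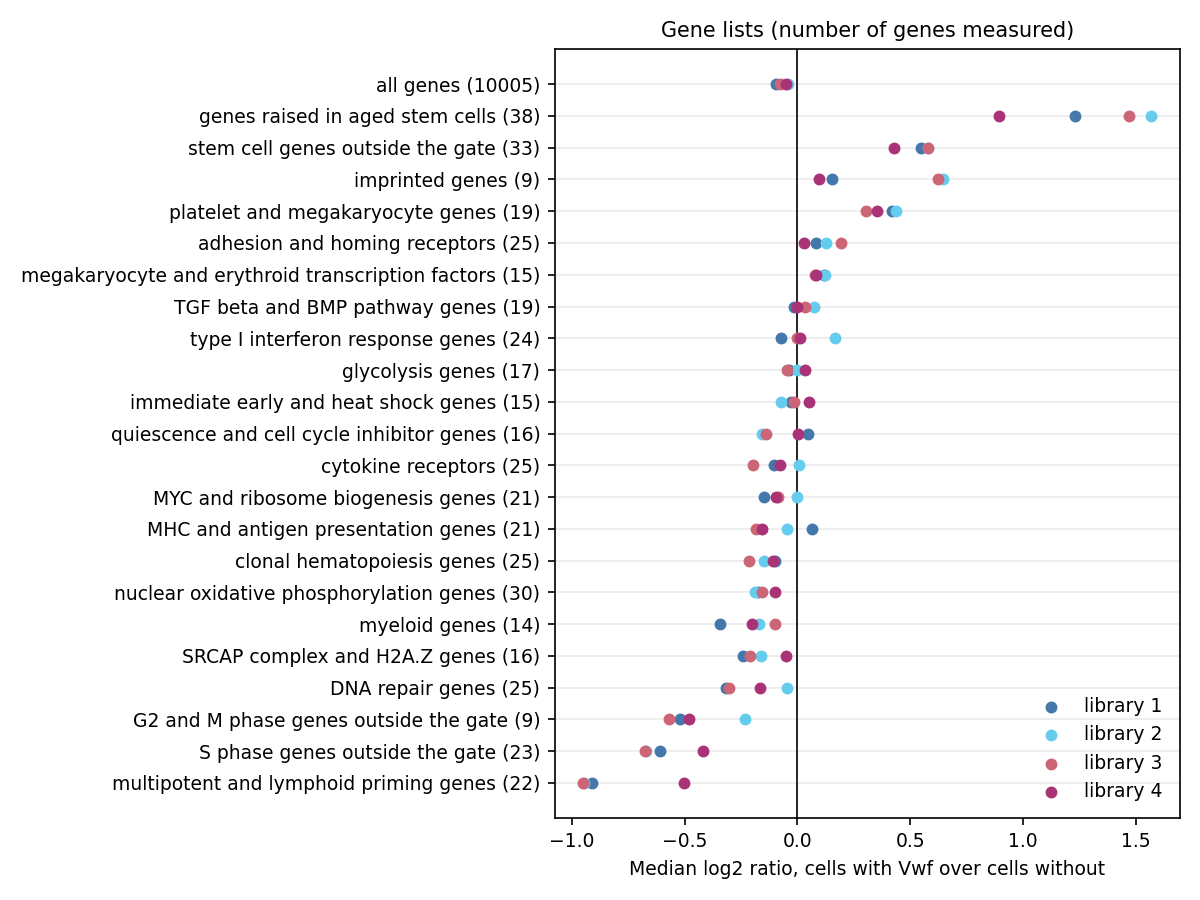
Median log2 ratio of each gene list, cell type markers apart, cells with Vwf over cells without, with the number of measured genes in brackets. Each point is a library, and the top row gives the median over all 10005 genes. The list of genes raised in aged stem cells lies farthest right (median 1.35) and the multipotent and lymphoid priming list farthest left (-0.93).

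For the called genes, the median step from 0 to 1 Vwf UMI was larger than the next step in each library. For the lower genes of library 2 the 2 steps were nearly equal. Over the 165 higher genes, the median log2 ratio of cells with 1 Vwf UMI over cells with 0 was 1.23, 1.36, 1.29 and 0.86 in libraries 1 to 4, and that of cells with 2 or more over cells with 1 was 0.20, 0.43, 0.26 and 0.27. Over the 148 lower genes the first step was -1.22, -0.89, -1.23 and -0.93 and the second -0.48, -0.83, -0.23 and -0.41. These genes were chosen on the same cells, so the size of the first step is a description of the choice. Clu went from a median of 8.1 CPM at 0 Vwf UMIs to 34.5 at 1 and 72.4 at 2 or more, and Mycn from 88.8 to 213 and 296 CPM. Cd34 went from 256 to 77.0 and 43.5 CPM and Nkg7 from 164 to 42.2 and 20.7 CPM. Cavin2 (27.8, 113 and 124 CPM) differed between libraries at the second step, from 109 to 212 CPM in library 2 and from 91.5 to 122 CPM in library 4, against 130 to 127 and 118 to 120 CPM in libraries 1 and 3.

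**Figure D4:**
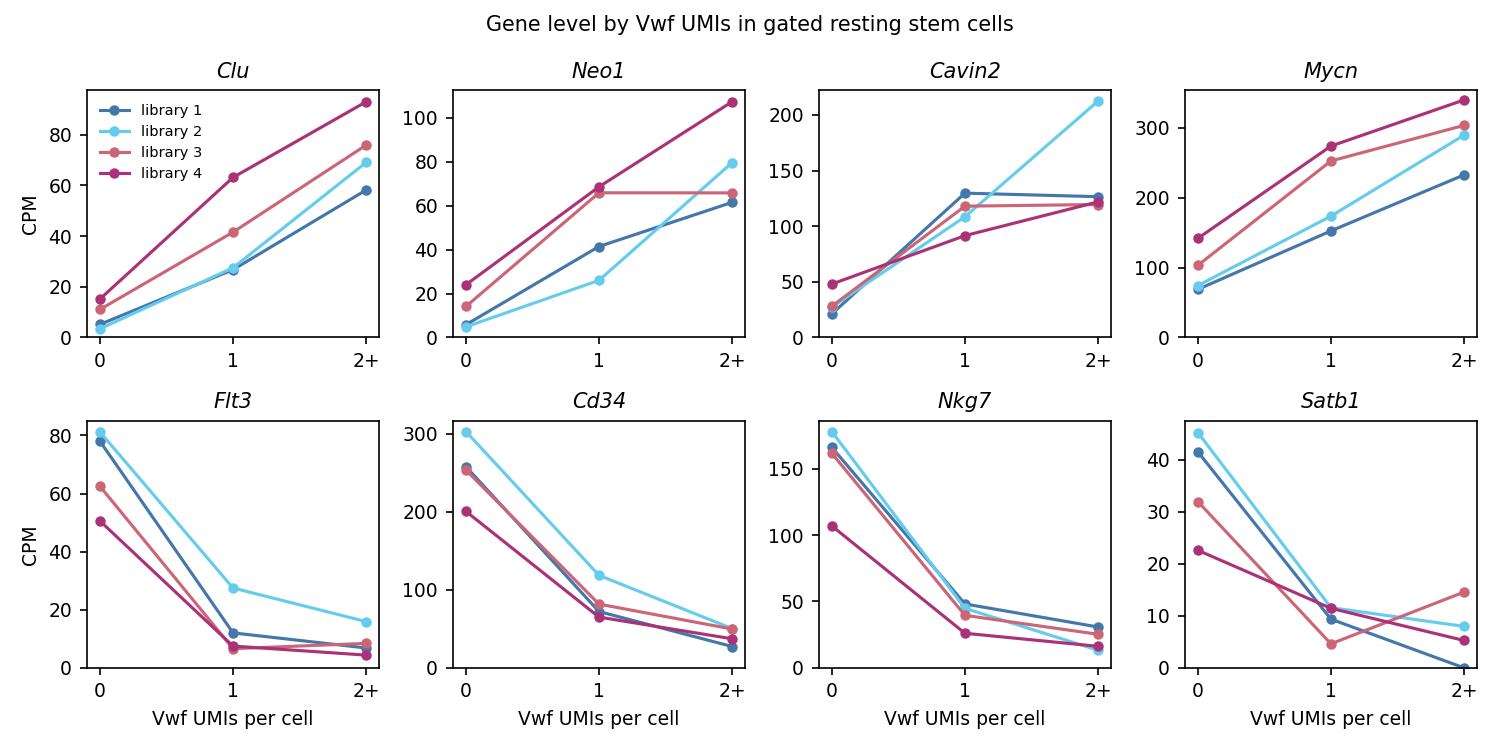
Level of 8 genes in gated resting stem cells with 0, 1 and 2 or more Vwf UMIs, in CPM on a linear axis from 0, 1 line per library. Clu and Mycn go up at both steps and Cd34 and Nkg7 down at both steps in each library, while Flt3 changes mainly at the first and Cavin2 goes up at the second in libraries 2 and 4.

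Genes of other cell types were measured beside these results. Of 12 endothelial markers, 6 were measured and 2 of these were higher, Cldn5 and the VEGF receptor gene Kdr, beside 1.65% of all genes. The median ratio of the 6 was 0.29 (0.20 to 0.42 over libraries). The summed level of the 12 markers was 231 to 287 CPM in members and 213 to 252 CPM in the others. The defining endothelial gene Cdh5 was found in 2 of 1077 members and Stab2 in none. A Cldn5 UMI was found in 101 members, 92 of which also had a UMI of the hematopoietic genes Ptprc or Kit, as did 93.0% of all members. Mature megakaryocyte markers summed to 276 to 337 CPM against 224 to 246 CPM, with Gp6 and Tubb1 at 0. T and natural killer cell markers summed to 21.8 to 43.3 CPM against 107 to 179 CPM, a gap made up largely of Nkg7, with Cd3e, Cd3d and Ncr1 at 0 in members. Neutrophil markers summed to 28.4 to 39.3 CPM against 47.6 to 65.7 CPM, stromal markers to 5.6 to 12.2 against 8.4 to 14.2 CPM, macrophage and dendritic cell markers to 3.7 to 11.4 against 8.1 to 18.0 CPM, and basophil and mast cell markers to 1.2 to 10.6 against 6.7 to 12.8 CPM. Of these, the stromal, the macrophage and dendritic, and the basophil and mast cell ranges overlapped between the sides. Erythroid markers also overlapped, at 696 to 820 CPM against 709 to 799 CPM. So did B cell markers (85.0 to 1317 against 310 to 617 CPM) and plasma cell markers (16.7 to 348 against 79.6 to 176 CPM). The part of these cells in the gene differences was not tested.

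Immunoglobulin genes varied most between libraries within members. This came from few cells: 2, 0, 0 and 3 members had 50 or more immunoglobulin UMIs, and in libraries 1 and 4 these held 96.5% and 94.9% of all such UMIs. Without gated cells of that kind 165 genes were higher and 148 lower, of which 161 and 142 were among the original calls. Among other genes chosen after their values were seen, H2-Eb1 (192, 127, 63.4 and 70.6 CPM), Trim35 (37.5, 54.3, 17.0 and 16.8 CPM) and Arhgap15 (45.2, 78.7, 25.9 and 32.0 CPM) were higher in members of libraries 1 and 2, and the gonadotropin receptor gene Lhcgr (24.0, 41.2, 63.8 and 73.1 CPM) in those of libraries 3 and 4. The same libraries were higher in cells without Vwf, so the pattern is not particular to members. There H2-Eb1 stood at 121, 164, 97.1 and 93.5 CPM and Trim35 at 42.5, 51.3, 31.9 and 25.1 CPM. Arhgap15 stood at 92.2, 112, 79.3 and 66.1 CPM and Lhcgr at 17.0, 21.9, 40.5 and 46.5 CPM. What sets these libraries apart was not tested, since their samples are unknown.

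Because members had more UMIs and more stem genes, cells without Vwf were drawn to match them, as far as there were enough. Cells without Vwf that were drawn to the same UMIs per cell gave 182 higher and 164 lower genes. In libraries 3 and 4, 300 and 488 such cells were found for 301 and 515 members. Drawn to the same number of stem genes as well, cells without Vwf gave 101 and 100, of which 94 and 87 were among the original calls. This match was also partial: 114, 116, 264 and 446 cells were found for 130, 131, 301 and 515 members. Flt3 then had a ratio of -2.53, Cd34 -1.66, Clu 2.81, Cavin2 1.62, Mycn 0.95 and Neo1 1.64. Within cells that had 4 or 5 of the stem genes, 40.8% had Vwf and 38 genes were higher and 35 lower. There the original 165 higher genes had a median ratio of 0.73 and the 148 lower ones of -0.84, against 1.34 and -1.19 in the whole gate.

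The stretch before the start site is shown for the 2 highest and the 2 lowest named genes with an entry in the RefSeq promoter table (GRCm38.p6), so that genes that moved together can be set side by side. Each is 250 bases long, 5′ to 3′ on the strand of the gene, and capitals mark matches on either strand to 3 kinds of words. GATA words were AGATAA or its form AGATAG and TGATAA or its form TGATAG, ETS words were CCGGAA and CAGGAA, and SOX words were ACAATG and ACAAAG. Cldn5 lies at chr16:18776597-18776846 (forward), Neo1 at chr9:59036442-59036691 (reverse), Wfdc17 at chr11:83703806-83704055 (forward) and Nkg7 at chr7:43436888-43437137 (forward).
Cldn5: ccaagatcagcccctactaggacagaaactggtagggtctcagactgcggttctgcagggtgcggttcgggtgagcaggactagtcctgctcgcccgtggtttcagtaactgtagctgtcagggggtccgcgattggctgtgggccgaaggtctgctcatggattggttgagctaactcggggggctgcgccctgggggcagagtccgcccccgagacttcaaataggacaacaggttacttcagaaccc
Neo1: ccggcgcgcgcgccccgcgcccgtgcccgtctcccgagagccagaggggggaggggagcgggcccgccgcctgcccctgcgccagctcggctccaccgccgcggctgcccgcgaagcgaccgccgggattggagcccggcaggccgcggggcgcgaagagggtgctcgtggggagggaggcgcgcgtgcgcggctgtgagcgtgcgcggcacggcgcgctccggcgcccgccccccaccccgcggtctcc
Wfdc17: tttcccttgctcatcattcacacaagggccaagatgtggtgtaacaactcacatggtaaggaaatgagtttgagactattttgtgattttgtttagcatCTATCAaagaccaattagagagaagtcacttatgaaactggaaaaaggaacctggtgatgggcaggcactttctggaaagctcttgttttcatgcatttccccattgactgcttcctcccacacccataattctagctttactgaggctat
Nkg7: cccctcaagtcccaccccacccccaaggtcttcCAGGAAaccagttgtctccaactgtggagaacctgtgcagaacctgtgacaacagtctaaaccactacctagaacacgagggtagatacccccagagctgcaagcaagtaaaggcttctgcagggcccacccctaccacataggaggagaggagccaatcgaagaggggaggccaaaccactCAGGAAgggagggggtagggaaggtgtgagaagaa
GATA words stood in the promoters of 3 of the 10 matched highest genes and 2 of the 7 matched lowest, beside 26.5% of 32851 promoters in the table. ETS words stood in 4 and 3, beside 35.1%, and SOX words in 3 and 0, beside 25.2%. A match is a run of letters and not a bound site, and with this few genes no comparison was made.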

How the data were processed

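Donor HSPCs of 4 samples were profiled with 10x Genomics 3' v3.1 chemistry, per the labels' protocols. The authors deposited 1 aggregated matrix of 32285 genes that holds raw UMI counts, and per the file headers it comes from Cell Ranger 6.1.2. The build is mm10, per the submitters' processing notes. Counts carried no scaling per cell, and whether depth was evened out at aggregation is not given in the sources used here. Barcode suffixes are not tied to samples, so no test between genotypes was run, and values are given per library.

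The members and gene lists were chosen with earlier results of these data known. UMIs were summed per library and side, scaled to CPM, and compared as the log2 ratio of CPM plus 1 in Python 3.11.15 with NumPy 2.4.6 and SciPy 1.17.1. Genes with at least 5 CPM entered. Called genes differed by at least 1.5-fold in 1 direction in 4 of 4 libraries. This sets a size and tests nothing. The code was checked on simulated counts with known changes. Named genes were the 15 highest and 15 lowest (20 CPM or more on the side where they are higher, ranked by their least extreme library), the 6 most variable between libraries at 50 CPM or more, up to 4 per list, and Srcap; ribosomal, mitochondrial and unnamed models were left out. Other list members named in the text were chosen after their values were seen. List medians are medians over libraries. TMM factors came from edgeR 4.0.16.

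Among kept cells 178 barcodes occurred in more than 1 library, and 11 members shared a barcode with a kept cell of another library. No doublet caller was run; an alternative without the highest 5% of UMIs stands in for it. The 3' counts do not separate near-identical gene copies. Some single genes that the rule names are omitted.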

Additional observations from a re-analysis of the deposited data

How the results depend on the processing

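No paired analysis was possible because the barcode suffixes carry no replicate number and are not tied to samples, so the replicate block was not run. The counts of 165 higher and 148 lower genes stayed within 1.5 times under matching on UMIs, equal weight per cell, Vwf of 2 or more, Pf4 of 0, no cycle UMI, a mitochondrial limit of 5%, a limit on the highest 5% of UMIs, a pseudocount of 5 CPM (116 and 108), no filter on low genes (232 and 220) and TMM factors (179 and 131). Thinning to 5000 UMIs gave 103 higher and 108 lower genes (78 and 83 of them original calls), at least 3 of the 5 stem genes 103 and 100 (102 and 89), and genes with at least 20 CPM 64 and 71 (all original calls, since fewer genes were tested). Of 49 called named genes 13, 11 and 18 lost their call under these settings. Chosen after seeing the data, matching on UMIs and stem genes gave 101 higher genes, and at least 4 of the 5 stem genes gave 38 and 35. The last also turned the median of the imprinted list to -0.035 and Ung to 0.36, and 26 of the 49 lost their call there besides Ung; the cause was not tested, though fewer cells were summed. The pooled share of 23.1% was 17.3% at 5000 UMIs, 10.97% with Vwf of 2 or more, 21.1% at the mitochondrial limit of 5%, 31.0% with at least 3 and 40.8% with at least 4 stem genes. Leaving out each library gave 180 to 220 higher genes, 161 to 219 lower genes and a share of 18.1% to 25.6%, the lowest without library 4. A call then had to pass in fewer libraries, so the larger gene counts follow largely from the rule and show no stability. At their median depths of 6775.5 to 7722 UMIs per library, cells without a Vwf UMI are not shown to lack Vwf, so both sides mix.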
